A study of Rattus norvegicus with 66 samples.

Results

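Neurons of the dentate gyrus and of the hippocampal fields are made in steps, and each step is marked by its own genes. Radial glia-like stem cells carry Hopx, an atypical homeodomain protein, and Nes, an intermediate filament protein of neural progenitors, and they use Pax6, a paired-box transcription factor of dorsal forebrain progenitors. Commitment to an excitatory fate passes through the proneural factor Neurog2 and the T-box factor Eomes of intermediate progenitors, and differentiation through the basic helix-loop-helix factors Neurod1, needed for dentate granule neurons, and Neurod2 and Neurod6, which stay on in pyramidal neurons. These 8 genes were followed here out of 37777 in the gene map of the count files. Each was matched by its symbol and had 1 row: Hopx gene28126, Nes gene6214, Pax6 gene8789, Neurog2 gene6978, Eomes gene20366, Neurod1 gene8220, Neurod2 gene23744 and Neurod6 gene11091.

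RNA-seq was run on dorsal hippocampus, dissected with some laterally adjacent cortex, from Long Evans rat pups at postnatal day 6. The dams had eaten chow with Aroclor 1254, a mixture of polychlorinated biphenyls, at 0.5 mg/kg (group Aro0.5) or 5 mg/kg (group Aro5), or with bisphenol A, a plasticiser component, at 0.5 mg/kg (group BPA0.5) or 5 mg/kg (group BPA5), in each case from before mating to lactation. Other dams were injected under the skin with chlorpyrifos, an organophosphate insecticide, at 1 mg/kg (group CPF1) or 3 mg/kg (group CPF3) in pregnancy and lactation. Feeding controls (CONF) got chow alone and injection controls (CONSC) the vehicle alone, which the labels give as saline and the methods as DMSO. Each low dose was measured in 4 male pups and in no females. The high doses were measured in 7 CPF3, 7 BPA5 and 6 Aro5 males and in 4 CPF3, 4 BPA5 and 5 Aro5 females. Both kinds of control were joined within a sex: 4 CONF and 5 CONSC males gave 9 male controls, and 5 CONF and 5 CONSC females gave 10 female controls. The groups follow the labels. For females the paper's methods give 4 CONSC and 5 BPA5 samples, where the labels give 5 and 4.

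The 66 libraries came from 64 pups of 44 litters, with 10644138 to 86206550 counts per pup, and 11 pups were dissected outside the stated time window. Values are CPM, the count of a gene scaled to the same total count in every pup. CA pyramidal neuron markers summed to 249.5 to 763 CPM and dentate granule neuron markers to 134 to 363 CPM. Some genes of these lists are also expressed elsewhere. The library names are written in 2 ways, here form A (a capital Y in male names, a _ sign after the control code in female names) and form B, and those of the treated females can be read as neither. The mark differs between the sexes, so whether form A is the same set of libraries in both cannot be told. In males, form B covered every high-dose library and 1 control library, so that form and high dose cannot be told apart beyond that library. Among the female controls 5 libraries were of form A and the other 6 of form B. Because no treated female library has a readable form, form and treatment cannot be told apart in females either. The female CONSC pup 9-1x stood apart from the other 9 female controls: its summed striatal markers were 1055 CPM against 138 to 437 CPM, its choroid plexus markers 4567 against 1600 to 3076 CPM, and its CA pyramidal neuron markers 249.5 against 408 to 729 CPM. Most values that rest on this pup are given with and without it, or are said to include it.

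Neurod2 and Neurod6 turned out to move together from pup to pup, with Neurod1 less tightly, and their promoters are shown for that reason, from 250 bases before to 50 bases after the RefSeq start in the rat assembly GRCr8, 5′ to 3′ along the gene. Capitals mark E-boxes, CANNTG, the site that proteins of the Neurod family are known to bind.
Neurod1: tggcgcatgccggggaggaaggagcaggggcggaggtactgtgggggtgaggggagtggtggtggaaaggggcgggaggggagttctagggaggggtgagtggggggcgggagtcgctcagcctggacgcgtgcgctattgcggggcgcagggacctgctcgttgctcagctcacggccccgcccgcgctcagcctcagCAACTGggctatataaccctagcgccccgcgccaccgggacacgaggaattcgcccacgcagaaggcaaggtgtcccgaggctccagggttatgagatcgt
Neurod2: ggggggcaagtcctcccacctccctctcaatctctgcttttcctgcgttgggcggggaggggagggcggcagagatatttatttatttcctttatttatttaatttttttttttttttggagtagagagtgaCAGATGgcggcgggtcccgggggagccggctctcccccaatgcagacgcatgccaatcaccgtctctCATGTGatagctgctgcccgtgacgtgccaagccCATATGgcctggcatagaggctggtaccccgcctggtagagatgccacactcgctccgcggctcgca
Neurod6: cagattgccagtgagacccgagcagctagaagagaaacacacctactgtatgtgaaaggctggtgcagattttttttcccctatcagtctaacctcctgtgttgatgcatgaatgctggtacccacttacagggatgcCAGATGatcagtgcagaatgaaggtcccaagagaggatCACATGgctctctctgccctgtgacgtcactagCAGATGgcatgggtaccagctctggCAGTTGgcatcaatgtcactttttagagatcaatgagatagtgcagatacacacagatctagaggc
The windows are chr3:84770405-84770704, chr10:83824228-83824527 and chr4:86180106-86180405, all on the minus strand. Neurod6 held 4 E-boxes, Neurod2 3 and Neurod1 1. Hopx also held 1, and Nes, Pax6, Neurog2 and Eomes held 0. Among 33469 promoters of the same length, 72.1% held at least 1 CANNTG, with a median of 2 where present. The form CAGATG or its reverse CATCTG stood in 16.6% of all promoters, in Neurod6 at 2 places and in Neurod2 at 1, and in none of the other 6 members. These are matches of letters, and binding was not measured.

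The stem cell genes had narrow ranges. Hopx ranged from 4.24 to 11.0 CPM over the 64 pups, and its group means from 6.13 ± 1.48 (SD, n = 6) in Aro5 males to 8.35 ± 1.91 CPM (n = 4) in CPF1 males. Nes ranged from 9.52 to 20.9 CPM, and its group means from 11.8 ± 1.82 (n = 4) in BPA5 females to 17.3 ± 2.58 CPM (n = 7) in CPF3 males. Pax6 ranged from 7.93 to 20.6 CPM, and its group means from 11.0 ± 2.06 (n = 6) in Aro5 males to 15.6 ± 4.50 CPM (n = 4) in CPF3 females. The highest group mean exceeded the lowest by 1.36 times for Hopx, 1.46 times for Nes and 1.41 times for Pax6.

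Of the commitment genes, Neurog2 was close to the limit of counting and Eomes was not. Neurog2 had 1 to 63 counts per pup, and its group means ran from 0.0966 ± 0.0423 (n = 4) in BPA0.5 males to 1.09 ± 0.261 CPM (n = 4) in BPA5 females. Its 5 female groups had the 5 highest means. Eomes ranged from 3.49 to 13.9 CPM, with group means from 6.38 ± 2.92 (n = 4) in BPA5 females to 10.1 ± 2.40 CPM (n = 4) in BPA0.5 males.

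The differentiation genes spread more widely. Neurod1 ranged from 4.38 to 52.2 CPM, an 11.9-fold span, and its group means from 14.6 ± 5.27 (n = 4) in BPA0.5 males to 28.1 ± 8.23 CPM (n = 7) in CPF3 males. Neurod2 had group means from 17.6 ± 4.84 (n = 4) in BPA0.5 males to 51.5 ± 8.82 CPM (n = 4) in CPF3 females, and again the 5 female groups had the 5 highest means. Neurod6 had the closest group means, from 115.9 ± 59.7 (n = 5) in CONSC females to 147.1 ± 30.0 CPM (n = 7) in CPF3 males. With the 13 groups of a member put in order of their means, no gap between neighbours exceeded the larger of their SDs, apart from 1 of 12 for Neurog2, between BPA0.5 and CONSC males.

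**Figure D1:**
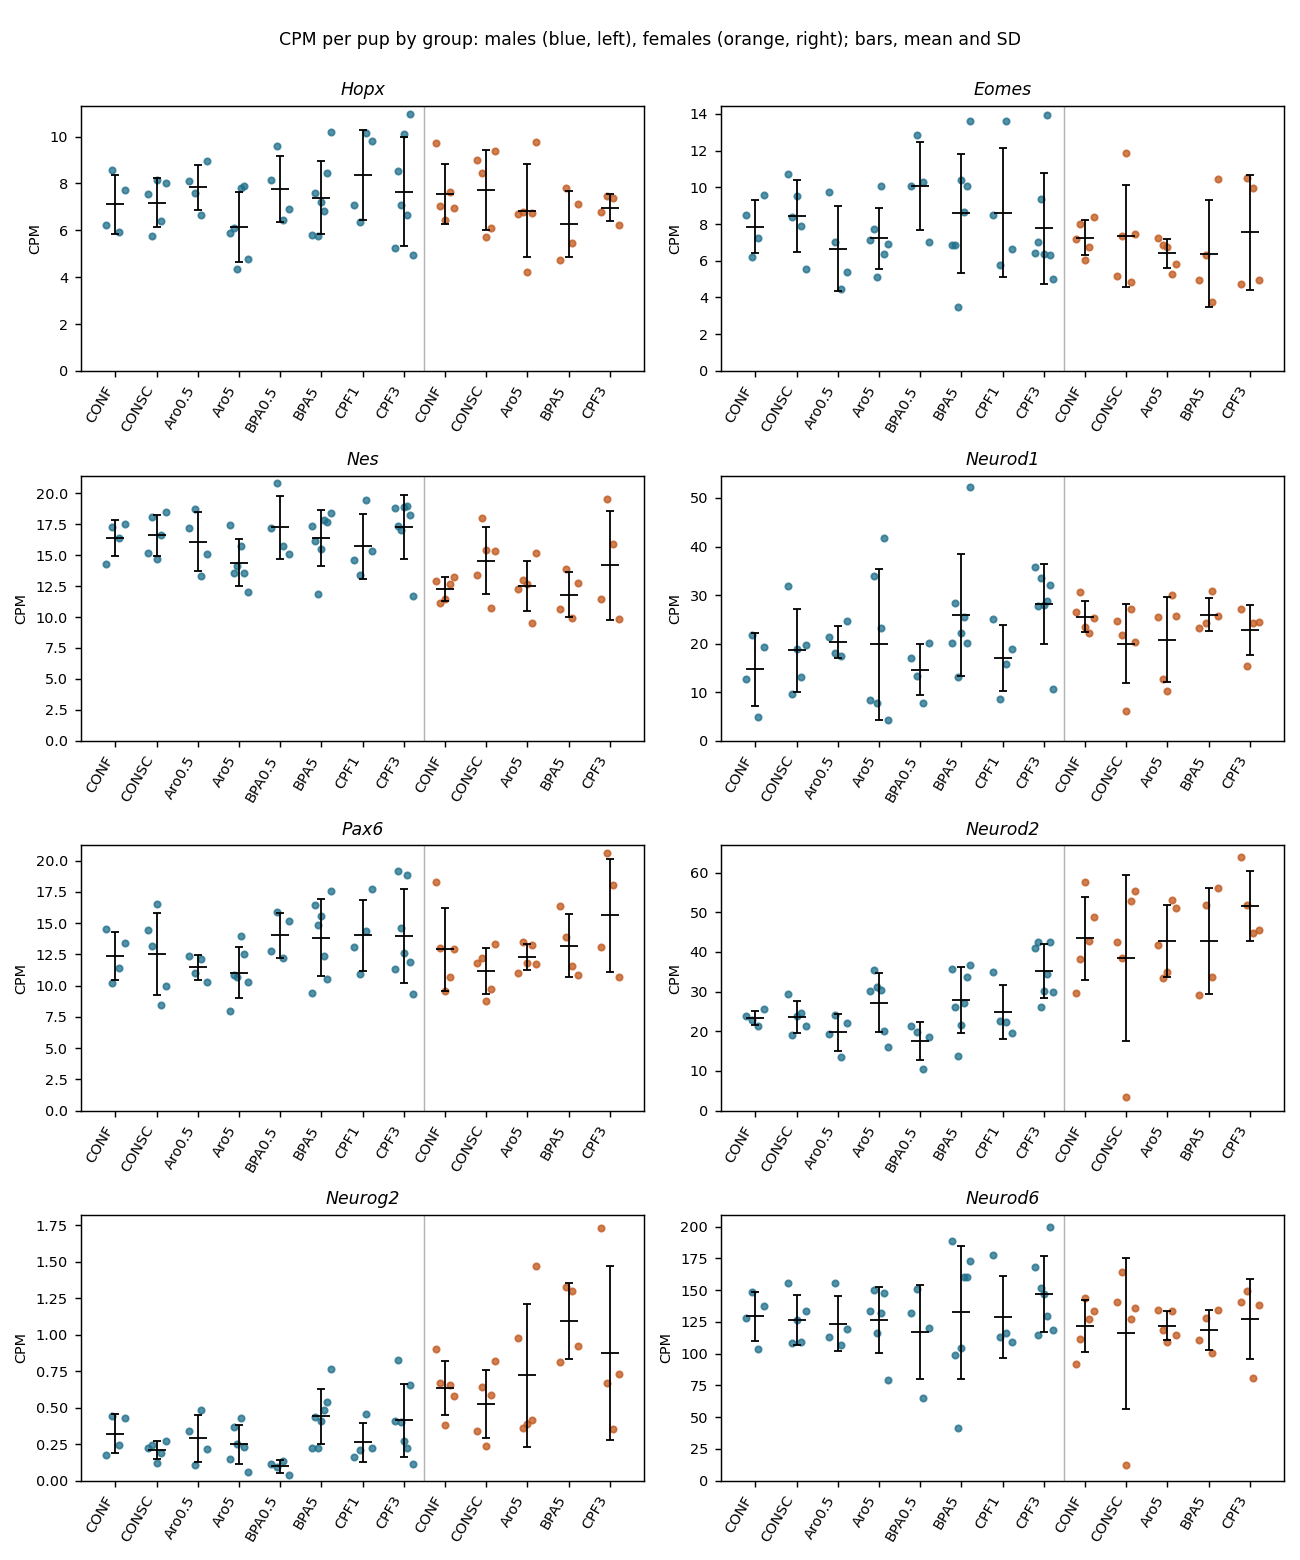
CPM of the 8 members (y axis, linear, from 0) in each of the 64 pups by group (x axis), males in blue and females in orange, with mean and SD as bars. Neurog2 and Neurod2 sit higher in the female groups, Neurod1 spreads from 4.38 to 52.2 CPM, and the single low female point of Neurod2 and Neurod6 is CONSC pup 9-1x.

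The first question was whether exposure of the dam changed these genes in the pups. No member passed an adjusted p of 0.05 in any of the 9 comparisons with controls (edgeR quasi-likelihood test, Benjamini-Hochberg over all genes tested). Neurog2 had too few counts to enter the male fits, which left 7 members there and 8 in females. Among all genes the share that passed was 0.195% for Aro5, 0.189% for BPA5 and 0.159% for CPF3 males. It was 0.124% for Aro0.5, 0.0434% for BPA0.5 and 0% for CPF1 males, and 0% for each of the 3 female comparisons. DESeq2 also called 0 members in all 9. At an unadjusted p under 0.05, 1 member passed in CPF3 males, 1 in BPA0.5 males, 1 in BPA5 females and 1 in CPF3 females, and 0 in the other 5 comparisons. The unadjusted shares of all genes were 12.6%, 8.58%, 4.08% and 8.79% in those 4 comparisons, and 11.8% (Aro5 males), 9.1% (BPA5 males), 18.5% (Aro0.5 males), 2% (CPF1 males) and 3.23% (Aro5 females) in the others. The median log2 fold change of the members lay between -0.16 in Aro5 males and 0.17 in CPF3 males, beside medians of all genes between -0.01 and 0.01.

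Neurod2 in CPF3 males was the member nearest to a call. The 9 male controls had 19.0 (lowest), 23.8 (median) and 29.5 CPM (highest), and the 7 CPF3 males 26.1, 34.4 and 42.4 CPM. The groups overlapped by 1 pup: 6 of the 7 CPF3 males lay above every control. The log2 fold change was 0.59 (SE 0.16, 95% interval 0.26 to 0.93, adjusted p = 0.161 by edgeR). It passed only with these 2 groups alone in the edgeR fit (adjusted p = 0.0249), and over the other planned settings its log2 fold change ran from 0.44 to 0.67. The lowest value, 0.44, came with the form of the library name as a covariate. Male pup N2-2y, a CONF control, had a library of each form, and there Neurod2 was 21.2 CPM in form A and 26.3 CPM in form B, a ratio of 1.24 within 1 pup.

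Neurod1 in CPF3 males had 10.8 (lowest), 28.8 (median) and 35.8 CPM (highest), beside 4.96, 18.9 and 31.8 CPM in the male controls. The ranges overlapped, with 3 of 7 CPF3 males above every control, and the log2 fold change was 0.74 (SE 0.37, adjusted p = 0.403 by edgeR). In BPA5 males it was 0.63 (adjusted p = 0.597 by edgeR). Summed striatal markers, genes of the neighbouring striatum, moved the other way: their mean was 186 CPM in CPF3 males, 206 CPM in BPA5 males and 331 CPM in male controls, and the median log2 fold change of the 6 tested was -0.80 and -0.66. Aro0.5 males had a still lower striatal mean, 160.5 CPM, and a median of -0.91. Their Neurod1 log2 fold change was 0.35 (adjusted p = 0.545 by edgeR). The part of tissue makeup in these values was not tested. In bulk RNA, fewer cells of a type and less RNA per cell cannot be told apart.

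Neurod2 in BPA0.5 males was 21.4, 19.9, 10.6 and 18.7 CPM, of which 2 pups lay below every control. Its log2 fold change was -0.39 (SE 0.17, adjusted p = 0.541 by edgeR). Both groups there carry form A names alone but for 1 of 2 libraries of N2-2y. At 5 mg/kg bisphenol A the sign was the other, at 0.24 (adjusted p = 0.636 by edgeR), and the 2 doses were fitted separately with the same controls.

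Neurog2 in BPA5 females was 0.816, 1.33, 1.30 and 0.925 CPM, 3 of the 4 above every female control. The female controls had 0.239 (lowest), 0.613 (median) and 0.899 CPM (highest). The log2 fold change was 0.96 (SE 0.36, 95% interval 0.22 to 1.71, adjusted p = 0.925 by edgeR), and it rests on 11 to 40 counts per BPA5 pup. Pax6 in CPF3 females was 13.1, 20.6, 18.0 and 10.7 CPM beside 8.77 to 18.3 CPM in controls, so that the groups overlapped. Its log2 fold change was 0.39 (SE 0.16, adjusted p = 0.51 by edgeR), and 0.29 without pup 43-3x. The form of names could not be read in either treated group, and its part was not tested.

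Hopx, Nes, Eomes and Neurod6 had an unadjusted p above 0.05 in all 9 comparisons. The 95% intervals give what these data allow: for Nes, the narrowest, -0.39 to 0.04 in Aro5 males and -0.12 to 0.28 in CPF3 males, and for Eomes -0.61 to 0.28 and -0.49 to 0.36. The intervals of Neurod6 in females reached -0.66 to 0.67 for BPA5, with pup 9-1x among the controls.

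**Figure D2:**
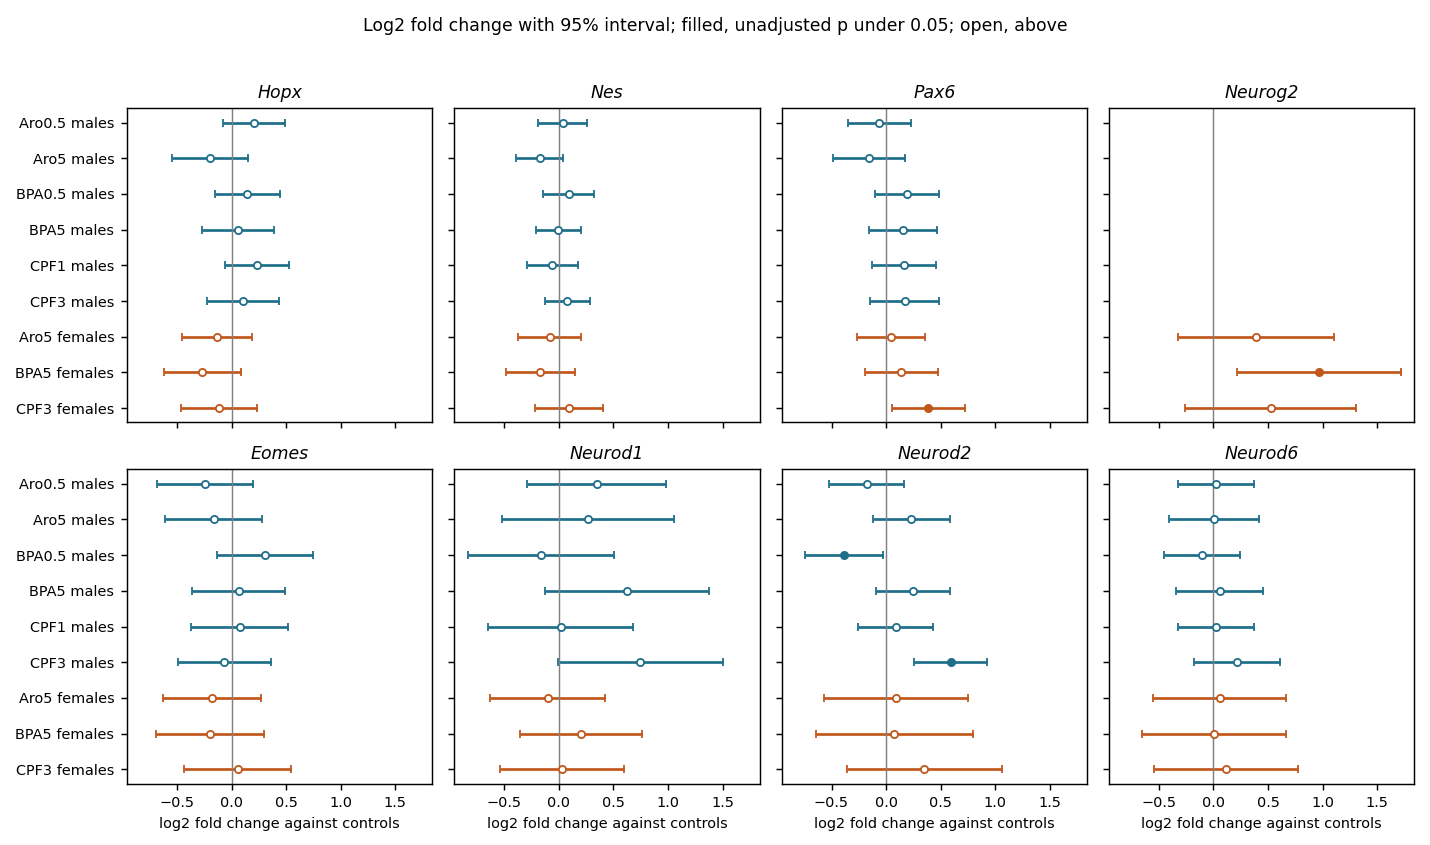
Log2 fold change against controls of the same sex (x axis) with its 95% interval for each member and comparison (y axis), males in blue and females in orange. Filled points mark the 4 values with an unadjusted p under 0.05, Neurod2 in CPF3 and BPA0.5 males, Neurog2 in BPA5 females and Pax6 in CPF3 females, and Neurog2 has no male values because it had too few counts.

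The wider lists of the same steps were read next. None of the tested genes of intermediate progenitors and neuroblasts, of radial glia and stem cells or of dividing cells passed the adjusted threshold in any of the 9 comparisons, and neither did a gene of the other 10 marker lists. The paper's own test did call genes of these lists in high-dose males, at a false discovery rate under 0.05. There, Gli3 and the thalamic list gene Tcf7l2 were higher with each chemical, and Sox11 with Aroclor and chlorpyrifos. Sox2 was lower with Aroclor. Why the outcomes differ was not tested. In CPF3 males, 5 of the 14 neuroblast genes were higher at an unadjusted p under 0.05 and 0 lower, where 5.33% of all genes were higher at that p. The 2 with the smallest p were Sox11, a factor of immature neurons (log2 fold change 0.67, SE 0.20, adjusted p = 0.21 by edgeR), and Dll3, a Notch ligand family member (0.37, SE 0.15, adjusted p = 0.33 by edgeR). The list's median log2 fold change was 0.25 beside 0.00 for all genes. These males also had higher values of 4 of 9 neocortical layer markers at that p, and the part of adjacent cortex was not tested.

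Whether the response differed between the sexes was tested as an interaction. For none of the 8 members did it pass the adjusted threshold with Aro5, BPA5 or CPF3, where 0.0984%, 0.0405% and 0.0463% of all genes passed, and 0 passed at an unadjusted p under 0.05 in each (8.92%, 2.79% and 5.6% of all genes). DESeq2 also called 0. The interaction term, female minus male response to CPF3, was -0.25 for Neurod2 (95% interval -1.02 to 0.51) and -0.72 for Neurod1 (-1.75 to 0.31). The 2 kinds of control were compared too: between CONF and CONSC, 0 of 7 members passed in males (0.013% of all genes; 0.988% unadjusted) and 0 of 8 in females (0%; 4.29% unadjusted), again with 0 at an unadjusted p under 0.05 and 0 by DESeq2.

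Control pups of the 2 sexes were compared next. Of 7 members tested, 2 passed the adjusted threshold in edgeR, Neurod2 higher and Nes lower in females, where 30.9% of all genes passed, so that a share of this size is not particular to the members. The labels give no date or run of sequencing, and whether the sexes were processed together cannot be told from them. Neurod2 was 19.0 (lowest), 23.8 (median) and 29.5 CPM (highest) in 9 male controls. The 10 female controls had 29.6, 38.1, 57.5, 42.8 and 48.8 CPM (CONF) and 42.4, 38.4, 3.38, 52.8 and 55.2 CPM (CONSC). Every female lay above every male except pup 9-1x at 3.38 CPM. The log2 difference, female minus male, was 0.84 (SE 0.28, adjusted p = 0.0248 by edgeR), and 0.98 without 9-1x (adjusted p = 4.24e-07 by edgeR). Litters linked the sexes, since 14 of the 19 control pups formed 7 pairs of a male and a female from 1 litter. Neurod2 was higher in the female in 7 of 7 pairs, at a mean of 42.8 against 22.4 CPM. In litters N3, 6 and 8 the female library was of form B and the male one of form A. The share of all genes with such a pair count was not computed. An edgeR fit of these pairs with litter as a block, added after the values were seen, gave 0.94 (SE 0.11, adjusted p = 0.00011), without pup 9-1x, which has no control littermate. Over all 19 control pups, limma-voom with litter as a block gave 0.47 (adjusted p = 0.47) and without the block 0.53 (adjusted p = 0.37), and neither called Neurod2. Both limma-voom fits include pup 9-1x, so they cannot separate the tool or the litter from this pup.

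The form of the library names moved with this difference. In the female controls Neurod2 averaged 30.1 ± 15.7 CPM (SD, n = 5 libraries) in form A and 49.6 ± 6.88 CPM (n = 6) in form B, a log2 difference of 0.75 (SE 0.40, adjusted p = 0.33 by edgeR). Of all genes, 1.43% differed between the forms there. Female pup N4-3x had 36.8 CPM in its form A and 40.3 CPM in its form B library. The labels give these libraries different dissection times, 12.09 and 11.55, so that they come from 1 pup is not certain. With form A libraries alone the sex difference was 0.40 (adjusted p = 0.499 by edgeR), and 0.66 without 9-1x (SE 0.11, adjusted p = 0.000604 by edgeR). With the form as a covariate it was 0.51 (adjusted p = 0.204 by edgeR), and 0.75 without 9-1x (SE 0.10, adjusted p = 9.15e-06 by edgeR). With pup 9-1x included, neither setting called Neurod2. Form A was read from different marks in male and female names, so neither setting is known to compare the sexes within 1 set of libraries.

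Neurod6, expressed in much the same neurons, was 103.6 to 155.7 CPM in male and 91.6 to 164.1 CPM in female controls other than 9-1x (12.1 CPM), and its log2 difference was -0.06 (SE 0.25, adjusted p = 0.88 by edgeR). The ratio of Neurod2 to Neurod6 within a pup, a measure added after the values were seen, was 0.153 (lowest), 0.187 (median) and 0.224 (highest) in the 9 male controls. In the 10 female controls it was 0.234, 0.338 and 0.415. The groups did not overlap, and pup 9-1x, at 0.28, lay with the females. The mean log2 ratio was 0.86 higher in females, 1.82-fold, and 0.70 higher in form A libraries alone (5 female and 9 male libraries). No test is given, because the ratio was chosen for this pattern. The pups with a library of each form had 0.154 (form A) and 0.222 (form B) in N2-2y and 0.333 and 0.355 in N4-3x. Treated males of form B averaged 0.217 ± 0.0447 (Aro5, n = 6), 0.226 ± 0.0537 (BPA5, n = 7) and 0.246 ± 0.0630 (CPF3, n = 7), and the low-dose males of form A 0.1595 ± 0.0254 (Aro0.5, n = 4), 0.153 ± 0.0142 (BPA0.5, n = 4) and 0.192 ± 0.00827 (CPF1, n = 4).

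Nes was lower in females, at 10.7 (lowest), 13.1 (median) and 18.0 CPM (highest) beside 14.3, 16.6 and 18.5 CPM in males, and the ranges overlapped. The log2 difference was -0.26 (SE 0.09, adjusted p = 0.0306 by edgeR). It was -0.20 with form A libraries alone (adjusted p = 0.30 by edgeR) and lost the call when any of 8 single pups was left out, at adjusted p from 0.051 to 0.0588. Neurog2 was 0.119 to 0.442 CPM in male controls (2 to 6 counts) and 0.239 to 0.899 CPM in female controls (8 to 32 counts), with overlap. It had too few counts for the fit. Its mean was 2.24-fold higher in females (0.58 ± 0.21 against 0.26 ± 0.11 CPM, 2-sided exact permutation p = 0.000931), and 2.26-fold in form A libraries alone (exact permutation p = 0.019). In N2-2y alone Neurog2 was 0.0607 CPM in form A and 0.282 CPM in form B. Both Neurog2 tests were added after the values were seen and treat littermates as separate pups. Neurog2 was higher in the female in 7 of 7 litter pairs, and so was Neurod1. Nes was higher in the male in 6 of 7. Hopx, Pax6, Eomes and Neurod6 had pairs of both signs. Neurod1 had a log2 difference of 0.48 (SE 0.26, adjusted p = 0.171 by edgeR) that reached 0.59 without 9-1x (adjusted p = 0.0269 by edgeR), and Hopx, Pax6 and Eomes had differences between -0.13 and 0.14 with adjusted p from 0.364 to 0.936 (edgeR).

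**Figure D3:**
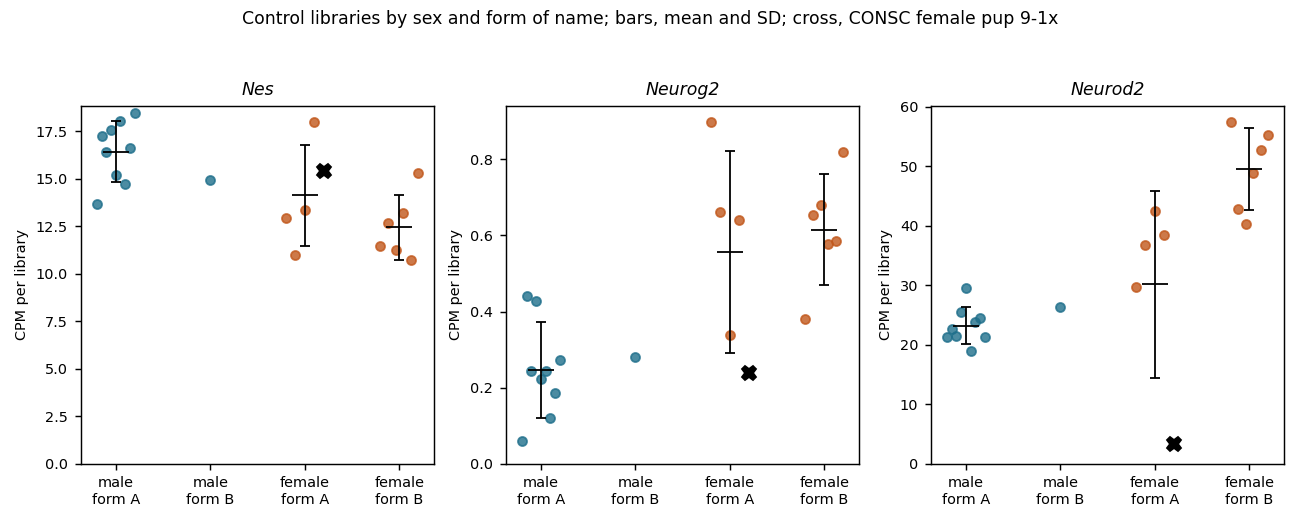
CPM per control library (y axis, linear, from 0) of Nes, Neurog2 and Neurod2 by sex and form of library name (x axis), with mean and SD as bars where there is more than 1 library. The cross marks CONSC female pup 9-1x, whose Neurod2 of 3.38 CPM lies far below the 29.6 to 57.5 CPM of the other female libraries.

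Other genes of these steps also differed between the control sexes. Of 14 neuroblast genes, 6 were higher in females and 0 lower, where 17.8% of all genes were higher. The 4 with the largest difference were Gadd45g, a stress and differentiation gene (log2 difference 1.05, SE 0.12), Sox11 (0.83, SE 0.19), Dll3 (0.60, SE 0.11) and Draxin, an axon guidance protein (0.52, SE 0.10), with adjusted p from 2.86e-07 to 0.0017 by edgeR. Of 16 radial glia genes, 4 were higher and 2 lower, where 13.1% of all genes were lower. The 2 lower genes had smaller differences than the 4 higher ones. The 4 higher genes were Hes5 (1.32, SE 0.16) and Hes1 (0.54, SE 0.09), targets of the Notch pathway, its receptor Notch1 (0.57, SE 0.07) and the homeobox gene Lhx2 (0.47, SE 0.13). The 2 lower ones are not named, because at most 4 genes of a list are. Nes, a stem cell gene among the members, was also lower in females. Of 11 dividing cell genes, 1 was higher (Birc5, 0.36) and 2 were lower (Ccnb1, -0.25, and Bub1, -0.23). In either direction 30.9% of all genes passed, so that the radial glia and dividing cell counts are not particular to these lists. Markers of cell types differed too: 3 of 6 CA pyramidal neuron markers were higher in females (median log2 difference 0.33), with which Neurod2 varied from pup to pup, and 3 of 7 oligodendrocyte markers were higher and 1 lower (median 0.25). Of the neocortical markers 2 of 9 were higher, of the interneuron markers 2 of 8, of the endothelial markers 2 of 6, and of the dentate granule, striatal and thalamic markers 1 each, while 0 choroid plexus and 0 microglia markers passed. These counts stand beside 17.8% of all genes higher and 13.1% lower, so that counts of 1 or 2 are not particular to a list. The part of tissue makeup in the sex difference was not tested. In form A libraries alone, 3 of 14, 3 of 16 and 1 of 11 neuroblast, radial glia and dividing cell genes were higher and 0 lower, with 11.7% of all genes called. The differences of single genes above were fitted without the form of names.

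Beyond the group differences, the members varied together from pup to pup. Each value was taken as log2(CPM + 0.5) less its group mean, and pups were permuted within groups. Of 28 pairs, 14 passed an adjusted p of 0.05, but 1 in females alone and 4 in form A pups alone. The tightest was Neurod2 with Neurod6 (Pearson r = 0.89, Spearman rho = 0.77, adjusted permutation p = 0.00028 for both, n = 64). It was 0.75 without the 2 pups farthest in Neurod2, 0.72 without 9-1x, 0.97 in form A pups (n = 23) and 0.76 in form B pups (n = 25). Nes went with Eomes (r = 0.61, rho = 0.56, adjusted permutation p = 0.00035 and 0.00149, 0.58 without the 2 farthest). Within form A that pair had r = 0.51 and within form B 0.63.

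Neurod1 moved against some marker lists and rose with others. Over the 64 pups it fell as the summed striatal markers rose (r = -0.78, rho = -0.73, adjusted permutation p = 0.000149 for both over 104 relations between members and lists). The relation was -0.73 without the 2 farthest pups, -0.75 in form A and -0.94 in form B. The 3 lowest pups, at 4.38 (Aro5 male 120-2y), 4.96 (CONF male N4-7y) and 6.14 CPM (CONSC female 9-1x), had 732, 383 and 1055 CPM of striatal markers. The 3 highest, at 35.8 (CPF3 male 35-5y), 41.7 (Aro5 male 120-1y) and 52.2 CPM (BPA5 male 91-6y), had 115, 96.3 and 69.0 CPM. It also fell as interneuron markers rose (r = -0.64, rho = -0.63, adjusted permutation p = 0.000149 for both). That r was -0.58 without 9-1x, which was the highest female control in both marker sums. Whether the interneuron and striatal lists read the same tissue was not tested. Neurod1 rose with dentate granule neuron markers (r = 0.57, rho = 0.58, adjusted permutation p = 0.00052 and 0.000208) and with thalamic markers (r = 0.56, rho = 0.53, adjusted permutation p = 0.00052 and 0.000662).

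The relations with striatal and interneuron markers were not limited to Neurod1. With striatal markers r was -0.42 for Neurod2, -0.50 for Neurod6, -0.43 for Neurog2 and -0.43 for Hopx, with adjusted permutation p from 0.000851 to 0.0178 for Pearson's r (rho from -0.46 to -0.32, adjusted permutation p from 0.00156 to 0.0424). Without 9-1x these were -0.27, -0.40, -0.39 and -0.40. With interneuron markers r was -0.50 for Neurod2 and -0.55 for Neurod6 (rho -0.41 and -0.58, adjusted permutation p from 0.000208 to 0.011), and -0.29 and -0.38 without 9-1x. It was -0.74 and -0.77 in form A pups, which include 9-1x, and -0.09 and -0.38 in form B pups.

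Neurod2 and Neurod6 rose with CA pyramidal neuron markers (r = 0.75 and 0.73, rho = 0.76 and 0.67, adjusted permutation p = 0.000149 for each) and less with neocortical layer markers (r = 0.35 and 0.37, rho = 0.38 for both, adjusted permutation p from 0.0162 to 0.023). The latter relation was 0.10 and 0.16 in form B alone. Eomes went with dividing cell genes (r = 0.66, rho = 0.68, adjusted permutation p = 0.000149 for both) and with choroid plexus markers (r = 0.54, rho = 0.51, adjusted permutation p = 0.00052 and 0.00168). Nes also went with dividing cell genes (r = 0.56, rho = 0.46, adjusted permutation p = 0.00253 and 0.00612; 0.44 without the 2 farthest). Hopx went with the other radial glia genes (r = 0.68, rho = 0.71) and equally with endothelial markers (r = 0.68, rho = 0.69; adjusted permutation p = 0.000149 for each). Without the 2 farthest pups these were 0.64 and 0.69. All points share the library's total, and the part of the tissue taken in was not tested.

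**Figure D4:**
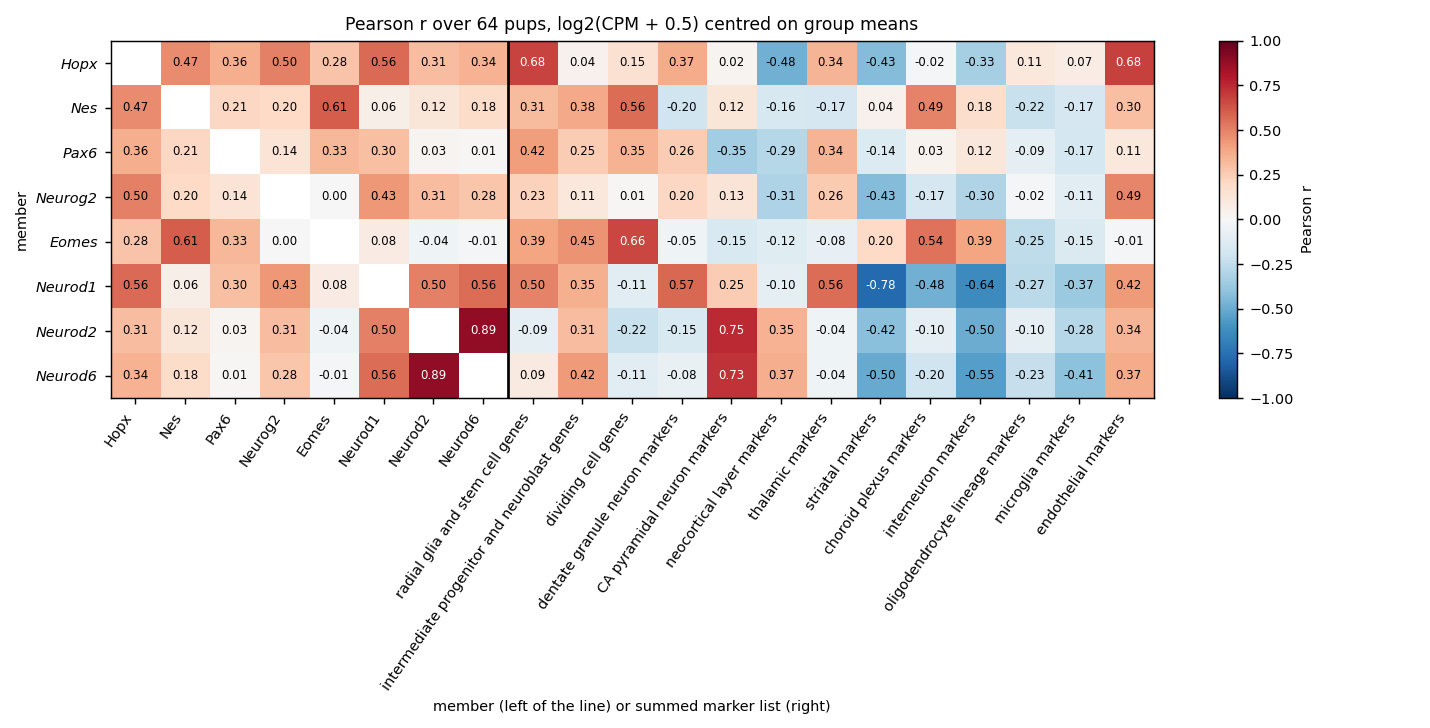
Pearson r over the 64 pups between each member (y axis) and the other members (x axis, left of the line) or the summed CPM of 13 marker lists (right), after centring on group means. Neurod2 and Neurod6 share the highest value, 0.89, and Neurod1 with striatal markers the lowest, -0.78.

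**Figure D5:**
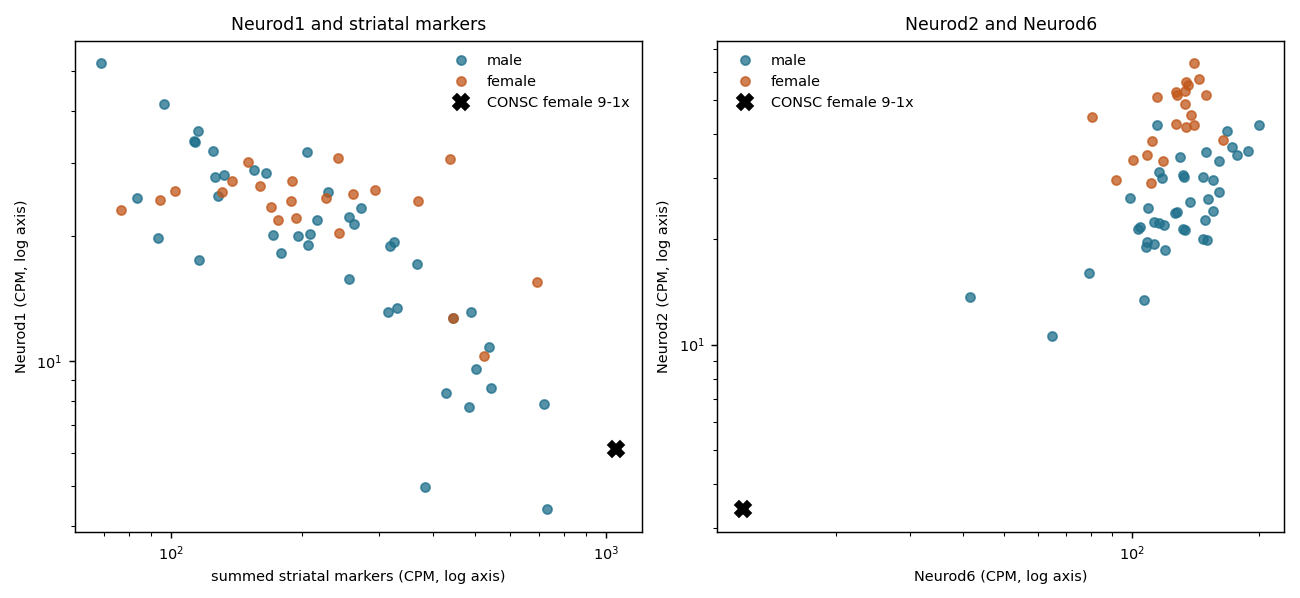
Each point is 1 pup, males in blue, females in orange and CONSC female 9-1x as a cross, on log axes of CPM without centring. On the left Neurod1 (y axis) falls as summed striatal markers (x axis) rise, and on the right most females have more Neurod2 (y axis) than males at like Neurod6 (x axis).

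Among 14702 genes with a mean of at least 1 CPM, those whose pattern over the 64 pups was most like each member were listed by Pearson r. Neurod1 was closest to Popdc3 (0.89), Slc9a2 (0.89) and Nrp1 (0.87). Neurod2 was closest to Fezf2 (0.90), Neurod6 (0.89) and Nfix (0.88), and Neurod6 to Nr4a3 (0.89), Khdrbs3 (0.89) and Fezf2 (0.89). Without 9-1x, Fezf2 had rank 3 for Neurod2 and 11 for Neurod6, and Neurod6 had rank 12 for Neurod2. Eomes was closest to Ryk (0.76), H3f3b (0.76) and LOC500700 (0.74), and Nes to Cdk2ap1 (0.73), Eef1a1 (0.73) and Rpl4 (0.72). Hopx was closest to Ptx3 (0.78), Cnn3 (0.77) and Mamdc2 (0.75). The lowest likeness was found for Neurog2, with Tnfaip1 (0.63), Sh3yl1 (0.62) and Amotl2 (0.61), and for Pax6, with Slc43a3 (0.60), Pls3 (0.59) and LOC102548260 (0.58).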

How the data were processed

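The authors deposited gene counts of 66 libraries (TruSeq stranded mRNA, aligned with STAR and counted with featureCounts on Rnor_6.0, per the labels); versions are not given in the sources used here, and the labels and methods name different sequencers. The deposited counts are whole and unnormalized. The 2 libraries of each of 2 pups were summed, which gave 64 pups, and no 2 libraries were identical. The replicate was the pup, and littermates were treated as separate. Counts were tested with edgeR 4.0.16 in R 4.3.3 (TMM, filterByExpr, quasi-likelihood F test, Benjamini-Hochberg over all genes of the fit), with separate fits for males at the high doses, males at the low doses and all females, a joint fit of both sexes for the interactions, and fits of the controls alone for sex and route. SE is the log2 fold change divided by the root of F. The code was tested on simulated data.

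CPM scales each count by the pup's total count, which lay between 10644138 and 86206550 and limit Neurog2 most. Correlations used log2(CPM + 0.5), 100000 permutations within groups (scipy 1.17.1) and Benjamini-Hochberg adjustment over 28 pairs or 104 relations with lists. Alternatives were DESeq2 1.42.0 and its size factors, other filters, pups left out, time window, litter, route, library set and the form of names. Settings without pup 9-1x or with litter pairs, limma-voom 3.58.1 without a block, the comparison of forms within female controls, the Neurog2 permutation tests and the ratio of Neurod2 to Neurod6 were added after the data were seen. The members and the gene lists were chosen with earlier results of these data known. All 8 members were named in every comparison. From each list at most 4 genes with the largest log2 fold change past the adjusted threshold were named, or the 2 with the smallest p, and for each member the 3 genes of highest r. The lists covered radial glia and stem cells, intermediate progenitors and neuroblasts, dividing cells, and 10 cell types or neighbouring regions. Insm1 and Nectin3 had no row under that symbol. Promoter sequences are RefSeq's (GRCr8) and were found for all 8 members; exon lengths were not used, so levels of different genes are not compared.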

Additional observations from a re-analysis of the deposited data

Results flagged for a closer look

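In the 13 groups of 4 to 7 pups, 6 of 104 combinations of member and group held a pup whose gap to the nearest other exceeded Dixon's 95% critical value; chance flags about 1 in 20. They came from 5 pups. Nes in CPF3 male 45-1y was 11.7 CPM (others 17.0 to 19.0), and Neurod1 in the same pup was 10.8 CPM (others 27.7 to 35.8). Neurod1 in BPA5 male 91-6y was 52.2 CPM (others 13.1 to 28.4). Neurod6 was 12.1 CPM in CONSC female 9-1x (others 127.1 to 164.1), 177.4 CPM in CPF1 male 16-7y (others 108.9 to 115.9) and 80.4 CPM in CPF3 female 43-3x (others 138.0 to 149.6).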

How the results depend on the processing

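The count of 0 members called held in 394 of 394 fits with 1 pup left out and in 121 of 122 other settings of the treatment, interaction and route comparisons; the exception was CPF3 males with only these 2 groups in the fit (1 member, Neurod2). In the sex comparison of controls, 2 members were called, but 0 with name form as a covariate, 0 in form A alone, 1 in form A without 9-1x, and 0 with litter as a block in limma-voom (Neurod2 0.47, adjusted p = 0.47); leaving out 1 pup gave 1 to 3 (3 without 9-1x). The tool changed there too: limma-voom without the block called 1 (Nes; Neurod2 0.53, adjusted p = 0.37), and edgeR with the block on the 7 litter pairs, which leave out 9-1x, called 2 (Neurod2 0.94, Neurod1 0.90). The limma-voom values with and without the block both include 9-1x. In controls 14 of 19 pups had a littermate, with a consensus correlation of -0.17, and the litter block changed no call in the interactions. Correlated pairs were 14, but 1 in females alone and 4 in form A pups. Of 4136 log2 fold changes of single members under other settings, 212 had the other sign, none of them with an unadjusted p under 0.05 on either side. The main limits are depth for Neurog2, the form of names and groups of 4 to 7 pups. The form covers the high dose in males and cannot be read in treated females. The causes were not tested. Of the 64 pups, 38 have a littermate among them, which the fits treat as separate.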
